A study of Mus musculus with 12 samples.

Results

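Cerebral cortex from mice that lack *Snx14* was compared with WT cortex at 1 month of age, in 3 *Snx14*-KO and 3 WT libraries chosen by tissue and genotype from the 12 libraries of the study. The other 6 libraries are cerebella of the same age and genotypes and are used here only to show where the cortex differs. Each library is bulk RNA from the dissected tissue of 1 mouse, so every cell type of the cortex contributes to it. WT mice carried both normal alleles of *Snx14*. *Snx14*-KO mice were homozygous for a Cas9-made deletion of 1 base in exon 14, a full-body mutation present in every cell, on a C57BL/6J background. A single mutant allele stands behind all of the KO animals, because only this allele gave homozygous pups, so variants linked to it cannot be told apart from the loss of *Snx14*. The sexes of the mice are not in the labels.

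SNX14 is an RGS-PX sorting nexin, a membrane protein anchored in the endoplasmic reticulum that gathers where the endoplasmic reticulum meets growing lipid droplets and takes part in handling fatty acids. Loss of its function in humans causes a childhood form of cerebellar ataxia with intellectual disability. The cerebral cortex is built from layers of excitatory projection neurons with inhibitory interneurons among them, supported by astrocytes, oligodendrocytes, microglia and blood vessels and covered by the meninges.

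The exon that carries the mutation is shown because the whole comparison rests on it. Exon 14 is coding sequence at chr9:88402144-88402268 (GRCm38, minus strand) and is exon 14 in 2 of the 8 *Snx14* transcripts with a sequence in GENCODE M21. Its 125 bases, 5′ to 3′ on the transcript strand, are given in lower case with the deleted base, base 87 of the exon and chromosome position 88402182, as the capital.
*Snx14* exon 14: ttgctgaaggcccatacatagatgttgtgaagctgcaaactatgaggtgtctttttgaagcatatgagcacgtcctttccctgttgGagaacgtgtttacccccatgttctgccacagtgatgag

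*Snx14* was the 1 gene that passed the test in cortex, and it was lower in every *Snx14*-KO library. The deposited count on *Snx14* (ENSMUSG00000032422) was 1008, 1026 and 1051 read pairs in the WT cortices and 136, 145 and 129 in the *Snx14*-KO cortices. Scaled to library size, as CPM (counts per 1000000 counts of the library, after TMM normalization), it was 51.1, 52.6 and 57.02 CPM in WT and 8.12, 7.61 and 7.32 CPM in *Snx14*-KO. The groups were far apart, and the *Snx14*-KO libraries held 15.1%, 14.2% and 13.7% of the WT mean. The log2 fold change of *Snx14*-KO over WT, log2(FC), was -2.80 (SE 0.095, 95% interval -3.01 to -2.59) with an adjusted *P* of 3.19e-08 in the edgeR quasi-likelihood fit, adjusted over 18255 genes after Benjamini and Hochberg. A call required an adjusted *P* below 0.05 and an absolute log2(FC) above 0.5, and 1 of 18255 genes (0.00548%) met both. The count covers the whole gene, so it does not say which part of the transcript remained.

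In the surroundings of the gene and among its relatives, no other gene passed the edgeR quasi-likelihood fit. Within 1000000 bases on either side of *Snx14*, 17 other genes were tested, of which 6 had a log2(FC) above 0 and 11 below. Among these, *Gm20537* had an unadjusted *P* below 0.05 (log2(FC) -0.60, SE 0.13) and was called lower by DESeq2 (adjusted *P* = 0.0432). Of its exon bases, 88.1% also belong to other genes, *Snx14* and *Syncrip* among them, with *Snx14* sharing the most. Read pairs on shared bases are counted for each of the genes. The other RGS-PX sorting nexins listed were *Snx13*, *Snx19* and *Snx25*, which belong to the same family as *Snx14*. *Snx13* measured 101, 109 and 109 CPM in WT and 105, 109 and 105 CPM in *Snx14*-KO. These values overlapped, at a log2(FC) of 0.0058 (SE 0.066). For *Snx19* and *Snx25* the log2(FC) was -0.028 (SE 0.061) and -0.033 (SE 0.074), and for all 3 relatives the 95% interval stayed within ±0.5.

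The libraries were cortex by their marker genes, and several of them stood apart from the rest. *Slc17a7*, the vesicular glutamate transporter of cortical excitatory neurons, measured 1241 to 1528 CPM in the 6 cortices against 235 to 386 CPM in the 6 cerebella, while *Gabra6*, a receptor subunit of cerebellar granule cells, lay between 0.0525 and 1.93 CPM against 503 to 722 CPM. *Snx14*-KO cortex 2 stood apart on the first principal component, which held 33.7% of the variance (30.7 against -10.01 to -1.64 in the other 5). Among 12935 genes at a mean of 5 CPM or more, leaving out sex-linked genes, 33 were more than 2-fold above all 5 other cortices in this library and 2 were more than 2-fold below, whereas the other libraries had 0 to 4 and 0 to 3. The second component (20.4%) separated WT cortex 1 and *Snx14*-KO cortex 1, in which *Xist* of the inactive X chromosome measured 597 and 414 CPM, from the other four, in which it was 0 to 1.08 CPM and the Y-linked *Ddx3y* was 66.3 to 73.8 CPM. Both genotypes therefore held 1 library with *Xist* and 2 with *Ddx3y*. Counts summed over genes were 16672589 to 19677417 per cortex, with a read pair counted for every gene it overlapped.

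Beyond *Snx14*, no gene passed the edgeR quasi-likelihood fit with 3 mice per genotype. An unadjusted *P* below 0.05 was reached by 822 genes (4.5%), 409 with higher values in *Snx14*-KO (2.24%) and 413 with lower (2.26%). The 3 *Snx14*-KO libraries lay wholly above the 3 WT libraries for 824 genes (4.51%) and wholly below for 866 (4.74%), 9.26% of genes in all. The median log2(FC) over all genes was 8.19e-05, and 50% of genes lay above 0. A log2(FC) beyond ±0.5 was reached by 1000 genes and beyond ±1 by 138, against a median SE of 0.125. For 11575 genes (63.4%) the 95% interval lay within ±0.5. That share was 0% for the 1526 genes under 1 CPM, 70.5% for the 4420 genes between 5 and 20 CPM and 98.1% for the 2400 genes over 100 CPM, so a difference beyond ±0.5 was bounded for well-expressed genes and not for scarce ones. DESeq2, the tool the study used, called 7 of the 13199 genes to which it gave an adjusted *P* (0.053%), 2 higher and 5 lower.

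**Figure D1:**
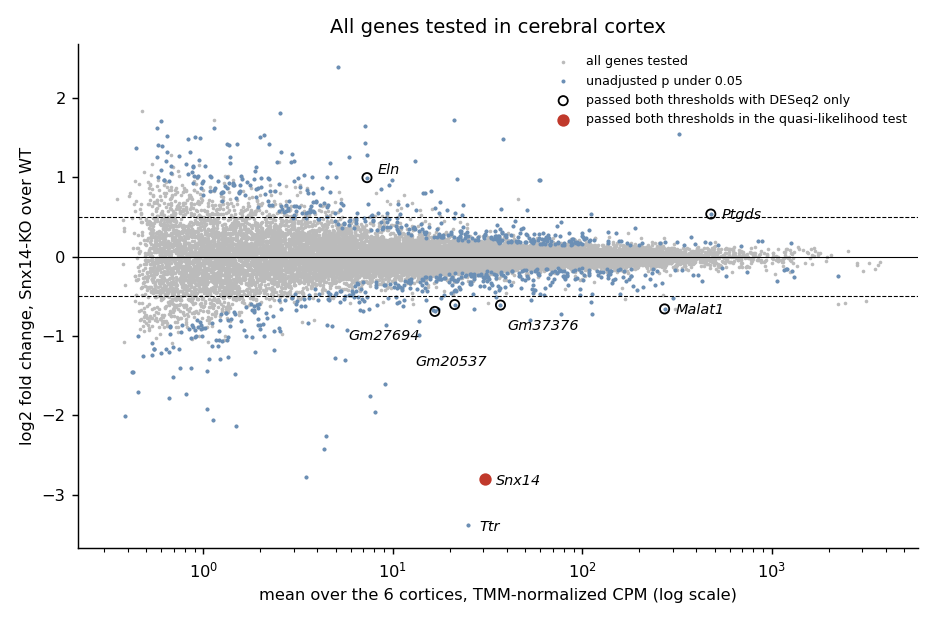
Each point is 1 of the 18255 genes tested in cerebral cortex, with its mean level over the 6 cortices (CPM, log axis) on the x axis and the log2(FC) of *Snx14*-KO over WT on the y axis. *Snx14*, at -2.80, is the gene that passed the test, and the scatter around 0 narrows as the mean level rises.

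*Malat1*, a long RNA kept in the nucleus and one of the most abundant in neurons, came next after *Snx14*. It measured 339, 307 and 352 CPM in WT and 238, 198 and 197 CPM in *Snx14*-KO. All *Snx14*-KO values lay below all WT values, with a log2(FC) of -0.66 (SE 0.087) and an adjusted *P* of 0.0623 in the edgeR quasi-likelihood fit, just outside the threshold. DESeq2 called it, as did the newer form of the quasi-likelihood test, the robust prior, the fit that kept genes with low counts and the fit without *Snx14*-KO cortex 1. It was not called with DESeq2 size factors, with the replicate block, with all 12 libraries or with any other library left out, where the adjusted *P* of the edgeR quasi-likelihood fit ranged from 0.0618 to 0.697. *Gm27694* and *Gm37376*, also among the DESeq2 calls, lie wholly within exons of *Malat1* and cannot be told apart from it, since a read pair was counted for every gene it overlapped. Of the 7 nuclear long noncoding RNAs listed, all had a log2(FC) below 0 (median -0.15). *Malat1* alone had an unadjusted *P* below 0.05 (2.26% of all genes were lower at this *P*), whereas 3 of the 7 were lower at it without *Snx14*-KO cortex 1 (2.83%). The median ranged from -0.28 without that library to -0.085 without WT cortex 1. Without *Snx14*-KO cortex 3, 5 were below 0, and 2 were lower at this *P* (2.97%). Without WT cortex 3, 6 were below 0, with 1 lower (1.82%) and 1 higher (1.61%) at this *P*. *Meg3*, an imprinted RNA at a similar or higher level, measured 1112, 929.9 and 940.3 CPM in WT and 1004, 800.4 and 845 CPM in *Snx14*-KO. Its groups overlapped (log2(FC) -0.17, SE 0.092).

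*Ptgds* and *Eln* led the genes with higher values among those at a mean of 5 CPM or more whose groups did not overlap, and DESeq2 called both. *Ptgds* encodes the prostaglandin D synthase that the meninges, choroid plexus and oligodendrocytes secrete into cerebrospinal fluid. It measured 425, 329 and 412 CPM in WT and 537, 623 and 535 CPM in *Snx14*-KO. The *Snx14*-KO values were all higher, with a log2(FC) of 0.54 (SE 0.097) and an adjusted *P* of 0.464 in the edgeR quasi-likelihood fit. *Eln*, the elastin of arterial walls and connective tissue, measured 4.97, 5.38 and 4.29 CPM in WT and 9.61, 12.5 and 7.09 CPM in *Snx14*-KO. Every *Snx14*-KO value again exceeded every WT value (log2(FC) 1.00, SE 0.21, adjusted *P* = 0.682 by the same test). *Vwf*, the clotting factor stored by endothelial cells, measured 8.52, 6.87 and 4.67 CPM in WT and 10.98, 16.5 and 9.93 CPM in *Snx14*-KO, and *Npnt*, an extracellular matrix ligand of integrins, measured 32.1, 40.7 and 39.5 CPM in WT and 43.7, 56.4 and 53.8 CPM in *Snx14*-KO. Neither gene's groups overlapped, at a log2(FC) of 0.90 (SE 0.23) and 0.46 (SE 0.11). *Met*, the receptor tyrosine kinase for hepatocyte growth factor found on cortical projection neurons, measured 16.3, 18.3 and 16.98 CPM in WT and 26.7, 28.2 and 21.1 CPM in *Snx14*-KO. Here too the lowest *Snx14*-KO value was above the highest WT value (log2(FC) 0.56, SE 0.12). *Mthfd1l* of mitochondrial folate metabolism had a log2(FC) of 0.56 (SE 0.15).

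Among genes with lower values at a mean of 5 CPM or more whose groups did not overlap, *Trf*, *Shc3* and *Kcnab1* came first by *P*, leaving out *Snx14* and the *Malat1* locus. *Trf*, the iron carrier transferrin that oligodendrocytes make in the brain, measured 202, 220.2 and 244 CPM in WT and 159.7, 179 and 158 CPM in *Snx14*-KO. The groups did not overlap (log2(FC) -0.42, SE 0.083). Of the exon bases of the predicted gene *Gm20425*, 98.9% also belong to other genes, with *Trf* sharing the most. *Shc3*, a neuronal adaptor of receptor tyrosine kinases, measured 60.7, 59.7 and 69.9 CPM in WT and 46.9, 42.4 and 49.2 CPM in *Snx14*-KO. *Kcnab1*, an auxiliary subunit of voltage-gated potassium channels, measured 101, 125 and 105 CPM in WT and 82.96, 82.05 and 84.4 CPM in *Snx14*-KO. Both were lower in each *Snx14*-KO cortex than in each WT cortex, with log2(FC) -0.46 (SE 0.086) and -0.41 (SE 0.083), and both stayed under the fold threshold. None of the 3 passed the edgeR quasi-likelihood fit, with adjusted *P* from 0.571 to 0.682, while DESeq2 gave adjusted *P* from 0.00231 to 0.0156. *Adcy5*, an adenylyl cyclase most abundant in the striatum, measured 171, 218 and 159.5 CPM in WT and 144, 122 and 132 CPM in *Snx14*-KO (log2(FC) -0.46, SE 0.11). Its highest value was in WT cortex 2, which also had the highest striatal marker levels given further on.

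**Figure D2:**
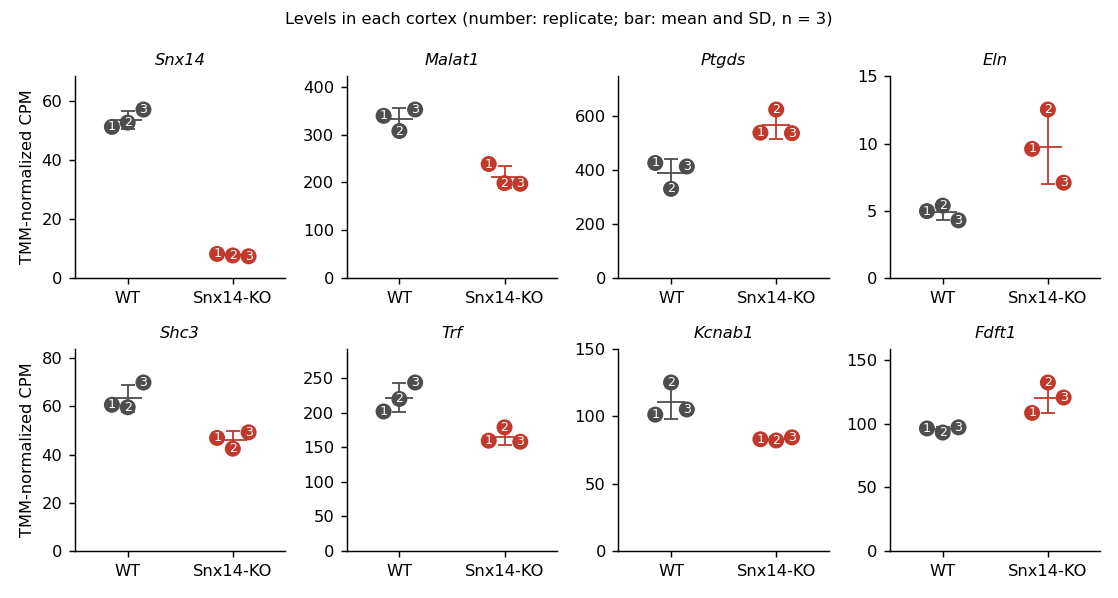
Level of 8 genes (CPM, each panel with its own axis from 0) in the 3 WT and the 3 *Snx14*-KO cortices, with 1 numbered point per library and bars for each group's mean and SD (n = 3). *Snx14* falls to 7.32 to 8.12 CPM in *Snx14*-KO, and in the other 7 panels the groups separate by less than 2-fold or, for *Eln*, by about that.

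The lists of cell type markers are described by how many of their measured genes lay on each side of 0. Beside each count of members at an unadjusted *P* below 0.05, here and in the lists that follow, stand the 2.24% of all genes that were higher and the 2.26% that were lower at this *P*. Of the 37 lists with measured genes, sex-linked genes left out, 13 had medians on both sides of 0 over the fits that each left out 1 library. In bulk tissue, fewer cells of a type and less RNA per cell cannot be told apart. For excitatory neurons, 7 of 10 shared markers were above 0 and 3 below (median 0.063), and all 10 intervals lay within ±0.5. *Mef2c*, a transcription factor of synapse development, was the 1 marker with an unadjusted *P* below 0.05. It measured 719.7, 835 and 811 CPM in WT and 881, 909.8 and 916 CPM in *Snx14*-KO, so that the groups did not overlap (log2(FC) 0.19, SE 0.067). *Slc17a7* measured 1241, 1384 and 1309 CPM in WT and 1425, 1528 and 1339 CPM in *Snx14*-KO, with overlapping groups (log2(FC) 0.13, SE 0.066).

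Markers of upper and deep cortical layers had medians on opposite sides of 0, by small amounts that moved with single libraries. Of 10 upper-layer genes, 7 were above 0 (median 0.045), and 3 had an unadjusted *P* below 0.05, all higher in *Snx14*-KO, against 2.24% of all genes. *Cux2*, a transcription factor of layers 2 to 4, measured 81.9, 85.2 and 79.9 CPM in WT and 92.6, 98.9 and 97.3 CPM in *Snx14*-KO. It did not overlap between groups (log2(FC) 0.23, SE 0.065). *Rasgrf2* and *Stard8* had a log2(FC) of 0.18 (SE 0.065) and 0.30 (SE 0.10). Of 11 deep-layer genes, 7 were below 0 (median -0.11), and 2 had an unadjusted *P* below 0.05, both lower, against 2.26% of all genes. *Bcl11b*, which specifies subcortical projection neurons of layer 5 and is also abundant in the striatum, measured 78.6, 85.9 and 69.4 CPM in WT and 66.01, 63.2 and 63.6 CPM in *Snx14*-KO. *Hs3st4*, a heparan sulfate sulfotransferase of layer 6, measured 87.6, 85.6 and 94.6 CPM in WT and 79.9, 68.4 and 71.7 CPM in *Snx14*-KO. Both were lower in every *Snx14*-KO library (log2(FC) -0.28, SE 0.081, and -0.28, SE 0.076). *Tbr1*, *Fezf2*, *Tle4* and *Ntsr1*, deep-layer genes as well, lay between -0.11 and 0.14. Leaving out 1 library at a time, the upper-layer median ranged from 0.018 without WT cortex 2 to 0.10 without WT cortex 1, and the deep-layer median from -0.17 without WT cortex 1 to -0.029 without *Snx14*-KO cortex 3. No gene of either list passed after adjustment.

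Inhibitory interneuron markers were balanced, with 8 of 14 above 0 and a median of 0.020. *Gad1*, which makes GABA, measured 349, 329 and 325 CPM in WT and 371, 354 and 316 CPM in *Snx14*-KO. *Sst*, the neuropeptide somatostatin, measured 245, 243 and 208 CPM in WT and 190.4, 183 and 219 CPM in *Snx14*-KO. *Gad1* overlapped between groups (log2(FC) 0.054, SE 0.073), and so did *Sst* (log2(FC) -0.23, SE 0.088), the 1 list member with an unadjusted *P* below 0.05. *Pvalb* and *Vip*, which mark other interneuron classes, had a log2(FC) of -0.18 (SE 0.11) and 0.057 (SE 0.10).

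Genes of myelinating oligodendrocytes were all below 0. Of 19 genes, 12 had an unadjusted *P* below 0.05 in the lower direction and 11 did not overlap between groups, against 2.26% and 4.74% of all genes, and the median log2(FC) was -0.25. None passed after adjustment. *Mal*, a proteolipid of compact myelin, measured 331, 396 and 345 CPM in WT and 275, 184 and 288 CPM in *Snx14*-KO. *Ermn*, a cytoskeletal protein of the outer myelin, measured 68.2, 72.4 and 78.2 CPM in WT and 53.4, 40.4 and 63.3 CPM in *Snx14*-KO. *Fa2h*, which hydroxylates the fatty acids of myelin galactolipids, measured 41.04, 31.9 and 36.7 CPM in WT and 30.5, 28.4 and 28.5 CPM in *Snx14*-KO. All 3 had every *Snx14*-KO value below every WT value, with a log2(FC) of -0.52 (SE 0.14), -0.48 (SE 0.13) and -0.33 (SE 0.10). *Mbp*, the main protein of compact myelin, measured 2947, 2831 and 3001 CPM in WT and 2818, 2213 and 3114 CPM in *Snx14*-KO. Its groups overlapped (log2(FC) -0.11, SE 0.098).

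*Snx14*-KO cortex 2 was the lowest library for most oligodendrocyte genes, and the shift was smaller without it. The mean of the list's log2(CPM + 1), centred on its mean over the cortices, was 0.15, 0.15 and 0.17 in WT and -0.02, -0.48 and 0.03 in *Snx14*-KO. Without *Snx14*-KO cortex 2, the list's median was -0.14, with 16 of 19 genes below 0 and 7 at an unadjusted *P* below 0.05 (2.68% of all genes in that fit were lower at this *P*). With other single libraries left out, all 19 genes stayed below 0, and the number at this *P* ranged from 6 without WT cortex 2 to 15 without *Snx14*-KO cortex 3, where 2.08% and 2.97% of all genes were lower. *Opalin*, a membrane glycoprotein of mature oligodendrocytes, measured 32.7, 33.7 and 32.4 CPM in WT and 25.2, 10.2 and 27.6 CPM in *Snx14*-KO, and its log2(FC) was -0.65 with all libraries and -0.32 without that one. *Myrf* and *Mog*, the master transcription factor of myelination and a myelin surface protein, had a log2(FC) of -0.39 and -0.35 with all libraries and -0.25 and -0.21 without it. Oligodendrocyte precursors did not share the direction, with 8 of 9 genes above 0 (median 0.10) and none at an unadjusted *P* below 0.05. *Pdgfra*, the receptor that defines them, measured 76.7, 70.98 and 55.8 CPM in WT and 59.7, 72.2 and 74.4 CPM in *Snx14*-KO, with overlapping groups (log2(FC) 0.021, SE 0.11).

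Genes of meningeal fibroblasts were all above 0, and most of that difference came with *Snx14*-KO cortex 2. Of 19 genes, 12 had an unadjusted *P* below 0.05 in the higher direction (2.24% of all genes) and 5 did not overlap between groups (4.51%), with a median of 0.66. *Col3a1*, a fibrillar collagen, measured 4.57, 3.02 and 2.82 CPM in WT and 5.01, 23.5 and 3.91 CPM in *Snx14*-KO. *Foxc1*, a transcription factor of the meninges, measured 3.45, 3.64 and 3.09 CPM in WT and 5.43, 7.92 and 4.59 CPM in *Snx14*-KO. *Slc6a20a*, a proline transporter of the meninges, measured 11.4, 9.02 and 11.3 CPM in WT and 15.2, 17.5 and 15.2 CPM in *Snx14*-KO. *Col3a1* stood out in a single library, whereas *Foxc1* and *Slc6a20a* were higher in each *Snx14*-KO cortex than in each WT cortex. Without *Snx14*-KO cortex 2, the list's median was 0.23, with 17 genes above 0 and 3 at an unadjusted *P* below 0.05 (1.77% of all genes in that fit were higher at this *P*). That number was also lower without WT cortex 2 and WT cortex 3, at 5 and 6 genes (1.80% and 1.61% of all genes), and was 13 or 14 without each of the other 3 (2.30% to 3.36%), with all 19 genes above 0. The log2(FC) of *Col3a1* went from 1.65 (SE 0.55) to 0.36, that of *Foxc1* from 0.82 (SE 0.22) to 0.56 and that of *Slc6a20a* from 0.59 (SE 0.13) to 0.52.

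Reactive astrocyte and border macrophage genes followed the same library. All 8 measured genes of reactive astrocytes were above 0 (median 0.94, and 0.15 without *Snx14*-KO cortex 2). *Gfap*, the intermediate filament of reactive astrocytes, measured 189, 141 and 166 CPM in WT and 192, 1002 and 249.7 CPM in *Snx14*-KO. *C4b*, a complement component they make, measured 11.4, 8.61 and 9.60 CPM in WT and 12.9, 72.2 and 12.2 CPM in *Snx14*-KO. In both, *Snx14*-KO cortex 2 lay far above all others, and the log2(FC) went from 1.54 to 0.42 and from 1.72 to 0.34 without it. All 6 measured genes of border macrophages were above 0 (median 0.96, and 0.21 without that library), among them *Mrc1*, the mannose receptor of these cells, at 4.41, 3.59 and 3.58 CPM in WT and 4.48, 21.04 and 5.62 CPM in *Snx14*-KO. Markers of astrocytes at rest did not follow, with a median of 0.057 over 12 genes, 11 of which had intervals within ±0.5. *Slc1a2*, the main glutamate transporter, measured 3719, 4147 and 3614 CPM in WT and 3754, 3173 and 4038 CPM in *Snx14*-KO and overlapped between groups (log2(FC) -0.066, SE 0.083). Its value in *Snx14*-KO cortex 2 was the lowest of the 6.

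Microglial identity genes showed no common shift, with 10 of 16 above 0 and a median of 0.086 (-0.029 without *Snx14*-KO cortex 2). *P2ry12*, the purinergic receptor of resting microglia, measured 56.5, 58.7 and 47.96 CPM in WT and 52.6, 37.98 and 49.6 CPM in *Snx14*-KO. *Fcrls*, a scavenger receptor of microglia, measured 30.5, 35.7 and 31.2 CPM in WT and 36.8, 46.7 and 40.9 CPM in *Snx14*-KO. The groups of *P2ry12* overlapped (log2(FC) -0.22, SE 0.12), and those of *Fcrls* did not (log2(FC) 0.35, SE 0.10). *Tyrobp*, a signalling adaptor of microglia, and *C1qc*, a complement subunit, were the other two members with an unadjusted *P* below 0.05, with a log2(FC) of 0.40 (SE 0.14) and 0.28 (SE 0.11), the latter 0.14 without *Snx14*-KO cortex 2. All 3 were higher, against 2.24% of all genes.

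Endothelial genes lay above 0 in all 12 cases, and the median stayed above 0 with each library left out. The median was 0.26 and ranged from 0.19 to 0.36 when 1 library at a time was left out. Of the 12 genes, 4 had an unadjusted *P* below 0.05, all higher (2.24% of all genes), and 2 did not overlap between groups (4.51%). The count of 4 was less stable. It was 0 without WT cortex 3 (1.61% of all genes in that fit), 1 without *Snx14*-KO cortex 1 (3.20%), 2 without *Snx14*-KO cortex 2 (1.77%) and 5 without WT cortex 1 (2.30%). *Slc2a1*, the glucose transporter of the blood-brain barrier, measured 66.4, 60.9 and 52.6 CPM in WT and 67.2, 81.9 and 68.8 CPM in *Snx14*-KO. *Cdh5*, the cadherin of endothelial junctions, measured 7.56, 5.23 and 6.13 CPM in WT and 9.31, 11.1 and 6.58 CPM in *Snx14*-KO. *Slc2a1* did not overlap (log2(FC) 0.28, SE 0.099), and *Cdh5* had its highest WT value above the lowest *Snx14*-KO value (log2(FC) 0.51, SE 0.21). Mural cell genes of the vessel wall had a median of 0.20, with 8 of 9 above 0 and *Vtn* alone at an unadjusted *P* below 0.05. Their median was 0.16 without WT cortex 2, with 0 genes higher at this *P* (1.80% of all genes). It was 0.39 without WT cortex 1, with 3 (2.30%). Hemoglobin and other blood genes had a median of -0.45, with 5 of 6 below 0 and 2 lower at an unadjusted *P* below 0.05 (2.26% of all genes). The median was -0.28 without WT cortex 2, with 0 lower at this *P* (2.08%), and -0.67 without WT cortex 1, with 5 (1.84%). *Hbb-bs*, an adult beta globin, measured 45.5, 80.8 and 65.1 CPM in WT and 42.7, 34.8 and 53.8 CPM in *Snx14*-KO. Its log2(FC) was -0.54 (SE 0.19), and -0.34 without WT cortex 2.

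**Figure D3:**
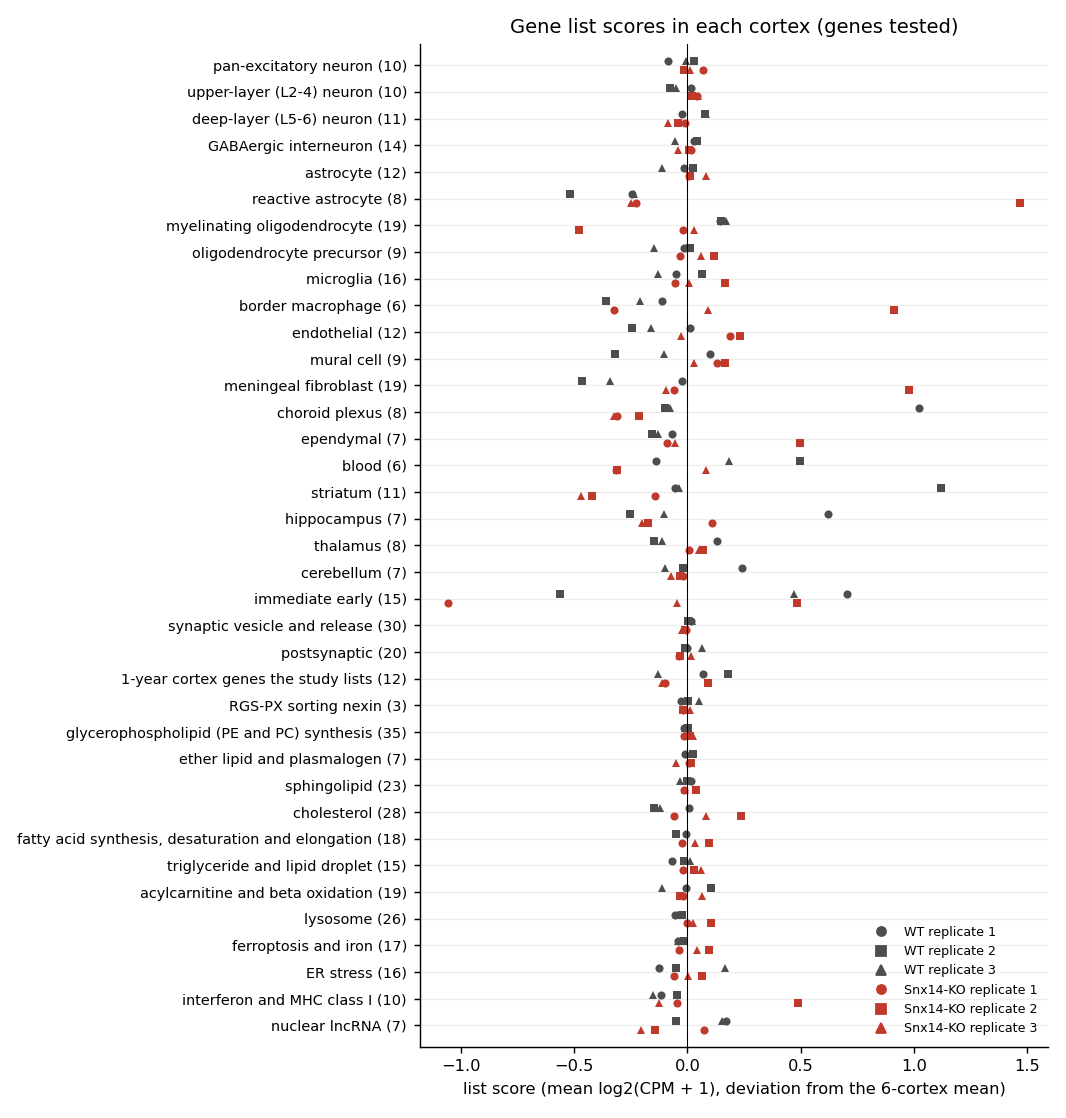
Mean log2(CPM + 1) of each gene list in each of the 6 cortices, centred on the list's mean over the cortices, with 1 row per list and 1 point per library. Reactive astrocyte, border macrophage and meningeal fibroblast genes are highest in *Snx14*-KO cortex 2, striatal genes in WT cortex 2 and choroid plexus genes in WT cortex 1, and immediate early genes are lowest in *Snx14*-KO cortex 1 and WT cortex 2.

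Genes of striatum, choroid plexus and hippocampus, which lie next to the cortex, had medians below 0, and a large part of each shift came with 1 WT library. Of 11 measured striatal genes, all were below 0 and 8 had an unadjusted *P* below 0.05 (2.26% of all genes were lower at this *P*), with a median of -0.68. *Adora2a*, an adenosine receptor of striatal projection neurons, measured 7.001, 23.6 and 4.56 CPM in WT and 5.19, 3.36 and 1.87 CPM in *Snx14*-KO. *Penk*, the enkephalin precursor that striatal neurons and some cortical interneurons make, measured 53.9, 100.1 and 46.9 CPM in WT and 37.2, 39.9 and 38.9 CPM in *Snx14*-KO. WT cortex 2 had by far the highest value of both, and without it the list's median was -0.20, with 9 genes below 0 and 4 lower at an unadjusted *P* below 0.05 (2.08% of all genes in that fit). *Penk* was lower in each *Snx14*-KO cortex than in each WT cortex, with a log2(FC) of -0.79 (SE 0.22) and -0.38 without WT cortex 2. *Ttr*, the transthyretin of the choroid plexus, measured 116, 9.43 and 11.9 CPM in WT and 7.10, 2.15 and 4.08 CPM in *Snx14*-KO, with WT cortex 1 far above the rest. The median of the 8 measured choroid plexus genes was -0.64, and 0.01 without WT cortex 1, when 4 lay above 0 and 4 below. With all libraries 2 genes were lower at an unadjusted *P* below 0.05 (2.26% of all genes), and 2 without that library (1.84%). *Clic6*, a chloride channel protein of the choroid plexus, measured 2.79, 1.90 and 1.79 CPM in WT and 0.895, 0.525 and 0.908 CPM in *Snx14*-KO. Both *Ttr* and *Clic6* were lower in each *Snx14*-KO cortex than in each WT cortex, with a log2(FC) of -3.38 (SE 0.86) and -1.48 (SE 0.34), and of -1.27 and -1.25 without WT cortex 1. *Fibcd1*, a hippocampal marker, was highest in the same library at 30.3, 10.3 and 12.1 CPM in WT and 13.1, 8.45 and 8.74 CPM in *Snx14*-KO. The hippocampal median of -0.27 over 7 genes became 0.07 without it. The part of these regional markers in the other results was not tested.

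**Figure D4:**
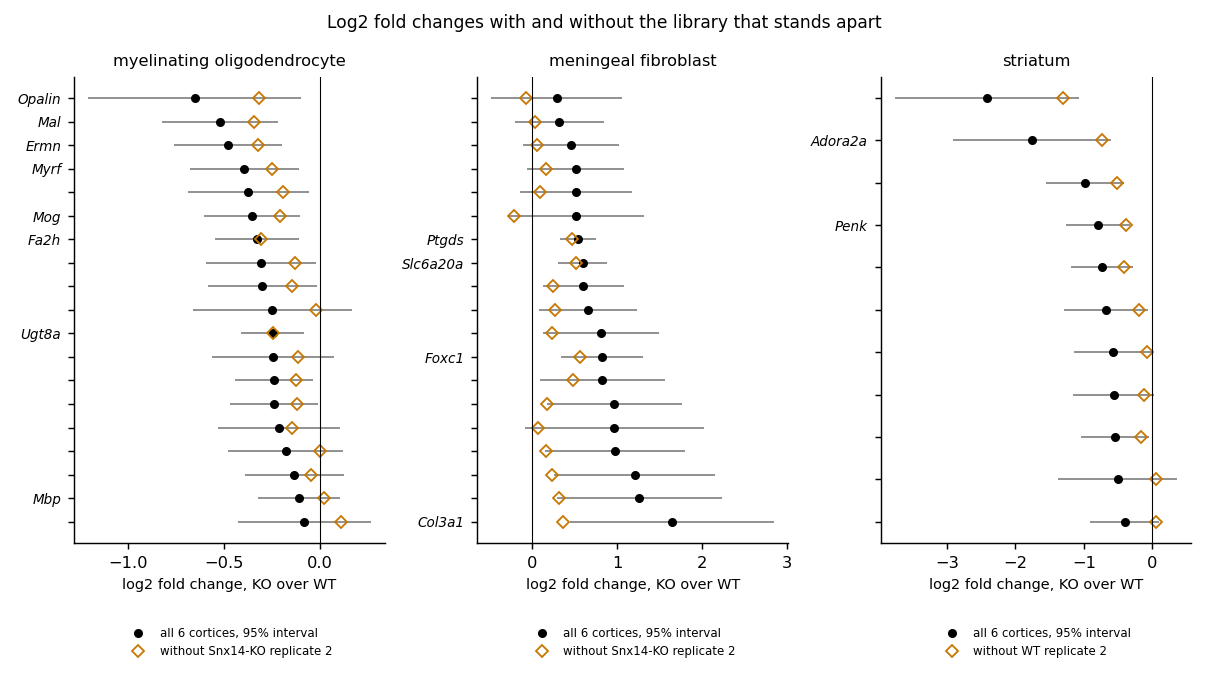
log2(FC) of *Snx14*-KO over WT (x axis) for each measured gene of the myelinating oligodendrocyte, meningeal fibroblast and striatum lists, with 95% intervals from all 6 cortices and open points for the fit without *Snx14*-KO cortex 2 or, for striatum, without WT cortex 2, and with names for genes described in the text. The medians move from -0.25 to -0.14, from 0.66 to 0.23 and from -0.68 to -0.20.

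Immediate early genes, which neurons switch on within minutes of activity, were below 0 in all 15 cases but none had an unadjusted *P* below 0.05. *Arc*, a regulator of synaptic receptor traffic, measured 504, 116 and 308 CPM in WT and 41.5, 386 and 239 CPM in *Snx14*-KO. *Fos*, a transcription factor, measured 72.2, 14.9 and 50.4 CPM in WT and 7.16, 58.4 and 33.9 CPM in *Snx14*-KO. In both genes the WT and *Snx14*-KO values were interleaved, with *Snx14*-KO cortex 1 and WT cortex 2 the lowest of all. The median of -0.40 became 0.01 without WT cortex 1 and -0.09 without *Snx14*-KO cortex 1. It was -0.60 without WT cortex 2 and -0.72 without *Snx14*-KO cortex 2, and in each of these fits all 15 genes were below 0 and 7 were lower at an unadjusted *P* below 0.05, against 2.08% and 2.68% of all genes in the 2 fits. *Bdnf*, the neurotrophin among them, had a log2(FC) of -0.30 (SE 0.14).

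Synaptic genes were spread evenly around 0. Of 30 genes of synaptic vesicles and transmitter release, 15 were above 0 and 15 below (median 0.0078), and 27 intervals lay within ±0.5. At a mean above 20 CPM, where 29 of the 30 genes lay, that share was 96.6% to 98.1% of all genes. *Syp*, an abundant vesicle membrane protein, measured 1262, 1311 and 1295 CPM in WT and 1416, 1307 and 1319 CPM in *Snx14*-KO. *Syt1*, the calcium sensor of release, measured 1654, 1782 and 1732 CPM in WT and 1729.6, 1743 and 1864 CPM in *Snx14*-KO. Both overlapped between groups, with a log2(FC) of 0.063 (SE 0.057) and 0.046 (SE 0.057). *Cplx2*, a complexin that clamps release, measured 1271, 1260.2 and 1248 CPM in WT and 1167, 1043 and 1173 CPM in *Snx14*-KO. Its *Snx14*-KO values were all lower, by a log2(FC) of -0.16 (SE 0.061). *Doc2a* and *Doc2b*, related calcium sensors of spontaneous release, lay on opposite sides of 0, with a log2(FC) of 0.20 (SE 0.067) and -0.49 (SE 0.18). *Doc2b* measured 29.5, 18.9 and 17.3 CPM in WT and 16.1, 17.4 and 13.4 CPM in *Snx14*-KO, with WT cortex 1 the highest, and its log2(FC) was -0.21 without that library. *Synpr*, a relative of synaptophysin, was the third with lower values at an unadjusted *P* below 0.05 (log2(FC) -0.23, SE 0.093).

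Postsynaptic genes were divided evenly as well, 10 above and 10 below 0 (median -0.014), with 19 of 20 intervals within ±0.5. *Dlg4*, the scaffold PSD-95, measured 782, 817 and 752 CPM in WT and 825, 692 and 779 CPM in *Snx14*-KO. *Grin1*, the shared subunit of NMDA receptors, measured 496, 500.4 and 497 CPM in WT and 529, 517 and 487 CPM in *Snx14*-KO. Neither separated the groups (log2(FC) -0.035, SE 0.072, and 0.038, SE 0.060). *Homer1*, a scaffold with a short form induced by activity, measured 256, 285 and 338 CPM in WT and 192, 254 and 256 CPM in *Snx14*-KO, with the lowest WT and the highest *Snx14*-KO value almost equal (log2(FC) -0.32, SE 0.12, unadjusted *P* = 0.0189, and -0.20 without *Snx14*-KO cortex 1). The study names 13 genes, part of a longer list, from cortices at 1 year of age, which are not analysed here, and 12 of the 13 were measured at 1 month. Of these, 8 were below 0 and 4 above (median -0.17), and *Doc2b* alone was lower at an unadjusted *P* below 0.05 (2.26% of all genes). The numbers moved with single libraries. Without *Snx14*-KO cortex 2, 10 were below 0 and 5 were lower at this *P* (2.68% of all genes in that fit), and without *Snx14*-KO cortex 1 the median was -0.073. *Unc13c*, a priming factor of vesicle release, measured 42.5, 35.6 and 35.97 CPM in WT and 29.01, 28.9 and 39.2 CPM in *Snx14*-KO (log2(FC) -0.23, SE 0.12).

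Cholesterol genes lay above 0 in 26 of 28 cases. An unadjusted *P* below 0.05 was reached by 8, all in the higher direction (2.24% of all genes), 8 did not overlap between groups (4.51%), and the median was 0.16. None passed after adjustment. *Fdft1*, squalene synthase, measured 96.3, 93.1 and 97.2 CPM in WT and 109, 132 and 121 CPM in *Snx14*-KO. *Sqle*, the squalene epoxidase that follows it, measured 70.5, 62.99 and 62.9 CPM in WT and 70.1, 113 and 82.5 CPM in *Snx14*-KO. *Fdft1* was higher in each *Snx14*-KO library and *Sqle* had *Snx14*-KO cortex 1 within the WT range, with a log2(FC) of 0.34 (SE 0.079) and 0.44 (SE 0.14). Of the exon bases of *Fdft1*, 18.3% also belong to other genes, with *Ctsb* of the lysosome list sharing the most. *Insig1*, which holds the pathway's transcription factor in the endoplasmic reticulum, had a log2(FC) of 0.29 (SE 0.11).

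The cholesterol genes were highest in *Snx14*-KO cortex 2 for many members, and the shift did not rest on that library alone. Leaving out 1 library at a time gave medians from 0.12 to 0.25, and from 4 genes higher at an unadjusted *P* below 0.05 without WT cortex 2 to 14 without *Snx14*-KO cortex 1, in fits where 1.80% and 3.20% of all genes were higher at this *P*. Without *Snx14*-KO cortex 2, 5 genes were higher at this *P* (1.77% of all genes) and 1 was lower (2.68%), *Fdft1* had a log2(FC) of 0.26 and *Sqle* of 0.22. *Abca1* and *Abcg1*, which export cholesterol, had a log2(FC) of -0.039 (SE 0.12) and -0.064 (SE 0.076). *Apoe*, the main lipid carrier of the brain, measured 1195, 1199 and 1116 CPM in WT and 1388, 1031 and 1326 CPM in *Snx14*-KO, with *Snx14*-KO cortex 2 the lowest of the 6 and the other two *Snx14*-KO libraries the highest (log2(FC) 0.093, SE 0.094). *Acat2*, which makes acetoacetyl-CoA at the head of the pathway and was not among the 28, measured 42.6, 42.1 and 40.5 CPM in WT and 54.4, 58.02 and 47.9 CPM in *Snx14*-KO (log2(FC) 0.36, SE 0.083).

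**Figure D5:**
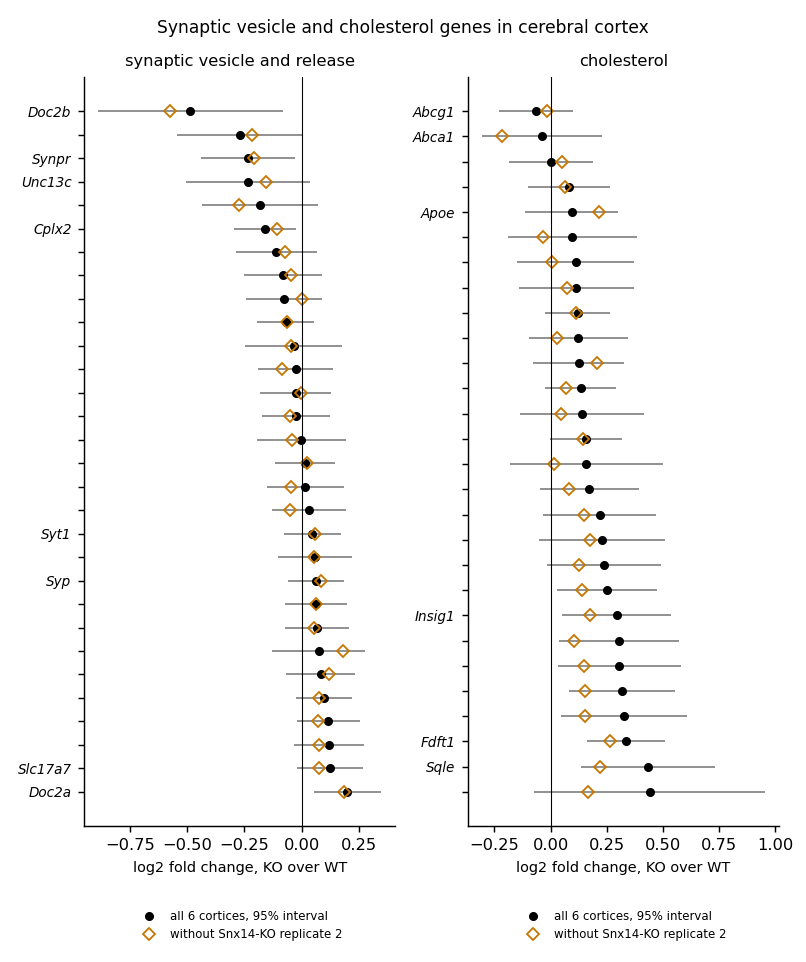
log2(FC) of *Snx14*-KO over WT (x axis) for each gene of the synaptic vesicle and cholesterol lists, with 95% intervals from all 6 cortices and open points for the fit without *Snx14*-KO cortex 2, and with names for genes described in the text. The 30 synaptic vesicle genes lie evenly around 0, and 26 of the 28 cholesterol genes lie above it.

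Genes for the other lipid classes showed no shared direction. Of 35 genes that make phosphatidylethanolamine and phosphatidylcholine, 18 were above 0 and 17 below, the median was 0.00, none had an unadjusted *P* below 0.05 and 30 intervals lay within ±0.5. *Pcyt2*, the rate-limiting enzyme of the CDP-ethanolamine route, measured 55.8, 49.97 and 60.7 CPM in WT and 60.6, 61.4 and 57.3 CPM in *Snx14*-KO. *Pisd*, the mitochondrial decarboxylase of the other route, measured 46.3, 46.3 and 46.8 CPM in WT and 47.3, 49.6 and 48.9 CPM in *Snx14*-KO. *Pcyt2* overlapped and *Pisd* did not, and both log2(FC) values were close to 0, at 0.11 (SE 0.081) and 0.065 (SE 0.069). Among 7 ether lipid genes, *Far1*, the fatty acyl-CoA reductase of plasmalogen synthesis, had an unadjusted *P* of 0.0335. It measured 117, 130.2 and 132 CPM in WT and 112, 106 and 118 CPM in *Snx14*-KO, overlapping by 1 library (log2(FC) -0.18, SE 0.074). Of 23 sphingolipid genes (median 0.049), *Cers2* and *Ugt8a* had an unadjusted *P* below 0.05, both lower (2.26% of all genes). *Cers2*, the ceramide synthase for very long acyl chains, measured 53.98, 50.9 and 47.7 CPM in WT and 41.9, 39.7 and 47.1 CPM in *Snx14*-KO. *Ugt8a*, which makes the galactosylceramide of myelin and is also in the oligodendrocyte list, measured 91.3, 83.7 and 84.7 CPM in WT and 67.1, 73.2 and 78.7 CPM in *Snx14*-KO. Neither overlapped between groups (log2(FC) -0.25, SE 0.085, and -0.25, SE 0.075), and without *Snx14*-KO cortex 2 the values were -0.19 and -0.25.

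Fatty acid, lipid droplet and oxidation genes were near 0 as groups. Of 18 genes that make, desaturate and elongate fatty acids, 13 were above 0 (median 0.088), and 17 intervals lay within ±0.5. *Scd2*, the desaturase most abundant in brain, measured 1628, 1629 and 1550.4 CPM in WT and 1524, 1538 and 1686 CPM in *Snx14*-KO. *Fads2*, the delta-6 desaturase of polyunsaturated fatty acids, measured 160.5, 142 and 135 CPM in WT and 157, 168 and 178 CPM in *Snx14*-KO. *Scd2* did not separate the groups (log2(FC) -0.017, SE 0.059), and *Fads2* was the 1 member with an unadjusted *P* below 0.05 (log2(FC) 0.20, SE 0.081). Of 15 triglyceride and lipid droplet genes, 8 were above 0 (median 0.018). *Plin4*, a lipid droplet coat protein, measured 0.812, 1.74 and 1.03 CPM in WT and 1.73, 1.78 and 4.14 CPM in *Snx14*-KO, a scarce gene with its highest value in *Snx14*-KO cortex 3 (log2(FC) 1.09, SE 0.40, and 0.55 without that library). *Dgat2*, which makes triglycerides at the droplet, measured 57.2, 66.2 and 56.4 CPM in WT and 60.7, 67.9 and 60.6 CPM in *Snx14*-KO (log2(FC) 0.074, SE 0.083). Of 19 genes of acylcarnitine handling and beta oxidation, 9 were above 0 and 10 below, none at an unadjusted *P* below 0.05. *Cpt1c*, the neuronal carnitine palmitoyltransferase, measured 72.6, 75.1 and 65.05 CPM in WT and 75.1, 71.1 and 63.5 CPM in *Snx14*-KO (log2(FC) -0.021, SE 0.082).

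Lysosomal genes were above 0 in 22 of 26 cases by small amounts (median 0.076), with 24 intervals within ±0.5. *Ctsl*, a cathepsin, measured 88.5, 98.7 and 102 CPM in WT and 105, 119 and 116 CPM in *Snx14*-KO. *Grn*, the progranulin of lysosomes, measured 45.6, 43.1 and 39.2 CPM in WT and 47.6, 69.9 and 47.03 CPM in *Snx14*-KO. Both had non-overlapping groups, and *Grn* was highest in *Snx14*-KO cortex 2 (log2(FC) 0.37, SE 0.14, and 0.15 without it), while *Ctsl* depended less on that library (log2(FC) 0.24, SE 0.077, and 0.20 without it). Of 17 genes of ferroptosis and iron handling, 2 were higher at an unadjusted *P* below 0.05 (2.24% of all genes), and the median of 0.046 became 0.00071 without *Snx14*-KO cortex 2. *Slc7a11*, the cystine importer that feeds glutathione synthesis, measured 56.6, 52.9 and 53.3 CPM in WT and 60.5, 69.04 and 62.6 CPM in *Snx14*-KO. *Gpx4*, the peroxidase that clears lipid peroxides, measured 264, 301 and 268 CPM in WT and 280.4, 228 and 271 CPM in *Snx14*-KO. *Slc7a11* was higher in each *Snx14*-KO library (log2(FC) 0.24, SE 0.074), and *Gpx4* overlapped (log2(FC) -0.10, SE 0.087).

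As groups, genes of endoplasmic reticulum stress and of interferon had medians that moved to the other side of 0 or close to 0 when 1 library was left out. Of 16 measured stress genes, 11 were below 0 (median -0.044), whereas without WT cortex 3 there were 13 above 0 (median 0.073). *Hspa5*, the chaperone BiP, measured 216, 262 and 344 CPM in WT and 220.5, 291 and 242 CPM in *Snx14*-KO. *Ddit3*, the transcription factor CHOP, measured 23.6, 23.5 and 29.2 CPM in WT and 24.5, 22.9 and 23.8 CPM in *Snx14*-KO. Both overlapped between groups (log2(FC) -0.12, SE 0.15, and -0.10, SE 0.11), and *Asns*, the asparagine synthetase, alone had an unadjusted *P* below 0.05. It measured 82.7, 82.2 and 78.9 CPM in WT and 85.9, 86.6 and 105 CPM in *Snx14*-KO, higher in each *Snx14*-KO cortex (log2(FC) 0.19, SE 0.084, and 0.085 to 0.24 with 1 library left out). Interferon and MHC class I genes were above 0 in 9 of 10 cases with a median of 0.31, which was 0.012 without *Snx14*-KO cortex 2. *Bst2*, the antiviral protein tetherin that interferon induces, measured 2.13, 2.97 and 2.55 CPM in WT and 2.92, 6.61 and 2.44 CPM in *Snx14*-KO, highest in that library. All 13 mitochondrially encoded protein genes had a count of 0 in every cortex, so the deposited counts carry no value for them.

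Some genes singled out 1 cortex without following the genotype. They were chosen after their values were seen, for lying more than 2-fold from all 5 other cortices. *Dpp10*, which helps potassium channels reach the membrane, measured 121, 137 and 233 CPM in WT and 221, 21.5 and 250.2 CPM in *Snx14*-KO. *Lars2*, a mitochondrial leucyl-tRNA synthetase, measured 154, 285 and 699 CPM in WT and 158, 311 and 251 CPM in *Snx14*-KO. *A2m*, a protease inhibitor, measured 1.78, 1.79 and 1.36 CPM in WT and 1.79, 22.8 and 1.13 CPM in *Snx14*-KO. The first was lowest and the third highest in *Snx14*-KO cortex 2, and *Lars2* was highest in WT cortex 3. None of the 3 had an adjusted *P* below 0.05 in the edgeR quasi-likelihood fit.

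The difference between genotypes in cortex was set against that in cerebellum by the interaction term of a fit to all 12 libraries. No gene of 19380 passed (0%), the smallest adjusted *P* was 0.103 in the edgeR quasi-likelihood fit, and 1100 (5.68%) had an unadjusted *P* below 0.05, against 36 that passed with DESeq2. Leaving out *Snx14*-KO mouse 2 in both tissues gave 249 genes, 242 of them with the cortical value below the cerebellar one, and leaving out WT mouse 1 gave 1. *Nrgn*, a calmodulin-binding protein of forebrain neurons, measured 6.37, 4.52 and 2.09 CPM in WT cerebella and 127, 9.65 and 124 CPM in *Snx14*-KO cerebella, against a log2(FC) of 0.10 (SE 0.083) in cortex. *Snx14*-KO cerebella 1 and 3 were high in this gene, and the part of such RNA in the interaction was not tested. *Ptgds* had a log2(FC) of 0.54 in cortex and 1.34 in cerebellum (interaction, adjusted *P* = 0.396). *Malat1* had -0.66 and -0.11 (interaction, adjusted *P* = 0.417). *Slc7a11* had 0.24 in cortex and 0.81 in cerebellum (interaction, adjusted *P* = 0.628). *Fabp5*, a fatty acid-binding protein, had 0.10 in cortex and 0.62 in cerebellum (interaction, adjusted *P* = 0.396). The cerebellar value was farther from 0 in all of these except *Malat1*, and none of these differences between tissues passed the test. The median log2(FC) of microglial genes was 0.086 in cortex and 0.81 in cerebellum, that of meningeal genes 0.66 and 1.15, that of myelinating oligodendrocyte genes -0.25 and -0.16, and that of cholesterol genes 0.16 and 0.11. These medians were not tested against each other. The summed level of the microglial genes was 285 to 364 CPM in WT cerebella and 338, 377 and 903 CPM in *Snx14*-KO cerebella, so that *Snx14*-KO cerebellum 3 stood apart. *Cd68*, a lysosomal protein of active phagocytes, had a log2(FC) of 0.42 (SE 0.24) in cortex and 2.20 in cerebellum (interaction, adjusted *P* = 0.8).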

How the data were processed

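RNA was extracted with TRIzol from dissected tissue, and libraries were made with a NEBNext Ultra kit. The authors trimmed and aligned the reads (STAR, GRCm38) and deposited raw counts of read pairs per gene from featureCounts (Subread 2.0.1), made without strand and with a pair counted for each gene it overlapped. Which library was sequenced at which site is not given in the sources used here. Spike-in and numbered features (0.0506 to 0.0564% of counts in cortex) were left out, and 55536 genes remained.

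Genes were kept by edgeR's filterByExpr, scaled by TMM and fitted by the quasi-likelihood test in edgeR 4.0.16 (R 4.3.3, limma 3.58.1) on the 6 cortices, with Benjamini-Hochberg adjustment over all genes tested. DESeq2 1.42.0 was the alternative tool. The scripts were tested on simulated counts. Scores are means of log2(CPM + 1). Intervals of log2(FC) are 95% intervals of the fit. With 16672589 to 19677417 counts per cortex and 3 mice per genotype, the median SE of log2(FC) was 0.434 for genes under 1 CPM, 0.145 between 5 and 20 CPM and 0.0718 over 100 CPM, which holds both counting error and the spread between mice. Replicates differed by more than sampling noise.

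The comparison and the 39 gene lists were chosen with earlier results of these data known. The 147 genes eligible to be named were *Snx14*, genes called by either tool, the 10 genes in each direction with the smallest *P* among those at 5 CPM or more whose groups do not overlap, the members of each list with the smallest *P* values or the highest level per kilobase, the genes the study names for cortex, and the 5 with the smallest *P* of the interaction. Some list members are counted but not reported here by name. *A2m*, *Dpp10* and *Lars2* were named for standing apart in 1 library, and *Abca1*, *Abcg1*, *Adcy5*, *Adora2a*, *Bdnf*, *Bst2*, *Cd68*, *Cpt1c*, *Ddit3*, *Dlg4*, *Fabp5*, *Fezf2*, *Fos*, *Gad1*, *Gpx4*, *Grin1*, *Hspa5*, *Mog*, *Myrf*, *Ntsr1*, *Opalin*, *P2ry12*, *Pcyt2*, *Pdgfra*, *Pisd*, *Pvalb*, *Slc17a7*, *Snx19*, *Syp*, *Syt1*, *Tle4* and *Vip* for their known roles, all after their values were seen. The alternatives were DESeq2, its size factors, no low-count filter, the replicate block, all 12 libraries in the fit, newer and robust forms of the quasi-likelihood test (added after seeing the data), and each library left out.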

Additional observations from a re-analysis of the deposited data

How the results depend on the processing

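*Snx14* kept its direction and passed under every alternative, with a log2(FC) from -2.84 to -2.76 when 1 library was left out. The count of genes called higher in *Snx14*-KO was 0 and that called lower was 1. DESeq2 called 2 and 5, and keeping genes with low counts called 85 and 64, while the newer quasi-likelihood form on those same genes called 0 and 2. The newer form alone, the robust prior and the fit with all 12 libraries each called 2 lower genes, and leaving out 1 library gave 0 higher and 1 to 2 lower. The interaction with tissue called 36 genes with DESeq2 and 418 without the filter, and 0 to 249 when 1 mouse was left out. The correlations between same-numbered cortices were 0.032, -0.112 and 0.068, which cannot show whether the replicate numbers pair mice across the genotypes. WT cortex 1 and *Snx14*-KO cortex 1, the libraries with *Xist*, lay together on the second component (-15.1 and -14.5, against 1.19 to 10.9 in the rest). With the replicate block, 0 genes were called higher and 1 lower, 670 had an unadjusted *P* below 0.05, the log2(FC) of *Snx14* was -2.80 and the interaction called 0. The signs of these uncalled genes turned when 1 library was left out, with log2(FC) over those fits from -0.17 to 2.91 for *A2m*, -0.21 to 0.053 for *Abca1*, -1.14 to 0.069 for *Arc*, -0.080 to 0.043 for *Cpt1c*, -0.15 to 0.010 for *Ddit3*, -0.094 to 0.033 for *Dlg4*, -0.44 to 0.53 for *Dpp10*, -1.15 to 0.033 for *Fos*, -0.27 to 0.072 for *Hspa5*, -1.04 to 0.13 for *Lars2*, -0.22 to 0.020 for *Mbp*, -0.10 to 0.12 for *Pdgfra*, -0.066 to 0.00705 for *Scd2*, -0.14 to 0.026 for *Slc1a2*, -0.030 to 0.024 for *Snx13*, -0.075 to 0.0098 for *Snx25*, -0.060 to 0.010 for *Tbr1* and -0.017 to 0.17 for *Vip*. *Dpp10* also turned without the filter (-0.000585), in the newer form without it (-0.000735) and with the replicate block (-0.44). The cause was not tested. With 3 mice per genotype, differences within ±0.5 could be bounded for 63.4% of genes.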
